A study of Mus musculus with 18 samples.

Results

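The 10 genes described here are the YAP and TEAD target genes *Ccn1*, *Ccn2*, *Ankrd1*, *Amotl2*, *Ajuba*, *Lats2* and *Axl*, together with *Tead1*, *Yap1* and *Wwtr1*, which encode the factors acting on them. They were chosen by symbol, with earlier results of these data known. Each was matched to an Ensembl gene of the 38924 in the deposited table. All 10 were among the 16577 genes with enough counts to be tested.

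YAP (*Yap1*) and TAZ (*Wwtr1*) are transcriptional coactivators that do not bind DNA themselves and reach their target genes through factors of the TEAD family, of which *Tead1* encodes a member. In the Hippo pathway the kinases LATS1 and LATS2 phosphorylate YAP and TAZ, which keeps them out of the nucleus. In fibroblasts, nuclear YAP and TAZ are known to be favoured by spreading on a stiff surface and by tension in the actin cytoskeleton, so that their activity is set largely by where the proteins are and not by the level of their mRNA, which is what was measured here.

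Fibroblasts of heart, kidney and tail came from male *Rosa mT/mG* mice of 10 weeks on a C57BL/6 background, which carry a membrane TdTomato reporter in all cells, and had grown for 10 days in culture. The transplanted groups HFs (heart), KFs (kidney) and TFs (tail) were absorbed in gelatin foam, placed under the kidney capsule of syngeneic C57BL/6J mice of 10 to 11 weeks, and recovered after 3 days by sorting CD45-;TdTomato+ cells. The cultured groups HFc, KFc and TFc were the remaining cells of the 10-day cultures, replated as controls and kept in culture for an additional 3 days. The part of this replating in the differences between the states was not tested. By the paper's description all 6 groups share the reporter allele and the culture before day 0, and none is fibroblasts taken straight from tissue. A library labelled KFs went against the male donors, as given below, and its origin was not tested. Each group had 3 libraries of bulk RNA, which the study describes as biological replicates. Whether these were separate animals or separate cultures is not given in the sources used here. The p-values measure the spread between libraries within groups, with the estimate for a gene shared by all 6 groups. Replicate pairs were more alike in culture (chi-square per degree of freedom, against sampling noise, 4.73 to 7.65) than after transplantation (11.5 to 256). A p-value therefore does not measure the spread of the compared groups alone.

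Library totals ran from 17927838 to 32245168 counts, and levels are given as CPM, which are counts scaled to a common library total with TMM factors, with replicates in the order 1, 2 and 3. The lowest count of any of the 10 genes in any library was 15, for *Ankrd1* in TFs replicate 3, so that no value lay at the floor of 3 counts. In the library labelled KFs replicate 3 the sex-linked genes went against the male donors: *Xist* was at 1492 CPM, against at most 0.404 CPM in the other 17 libraries, and 3 of 4 Y-linked genes had no count. This library also stood apart in its summed level of 7 fibroblast markers, which was 17700 CPM, against 92500 and 68700 CPM in KFs replicates 1 and 2. Its name in the deposited counts, Kidney-Fibros, also has another form than the names of the other libraries. It is kept in all values below, and results on KFs are also given without it. The summed fibroblast markers were 72700 to 122000 CPM in HFs and 30500 to 37100 CPM in TFs, against 11800 to 15600 CPM in the cultured groups, and 6 of the 7 (all but *Thy1*) had a higher mean in the transplanted group in each organ.

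Markers of kidney cell types and of blood also moved between the states. The sum of 8 proximal tubule markers was 112 to 1100 CPM in HFs, 54 to 115 CPM in KFs and 115 to 297 CPM in TFs, with the highest value in HFs replicate 2, and each of the 8 was above the floor in every transplanted library. In culture the sum was 19.9 to 20.2 CPM in HFc, 95.6 to 102 CPM in KFc and 13.9 to 16.4 CPM in TFc, and *Kap*, *Slc27a2* and *Pck1* had no count in any cultured library. The sums of 5 markers of the loop, distal tubule and collecting duct were 11.8 to 81 CPM in transplanted and 0 to 0.366 CPM in cultured libraries, and those of 4 podocyte markers 1.95 to 60.9 and 0.833 to 26.6 CPM. The sums of 6 endothelial markers were 43.7 to 58.8 CPM in transplanted and 35.1 to 41.9 CPM in cultured libraries, most of it *Pecam1* and *Vwf*. The 6 macrophage and leukocyte markers summed to 83.9 to 141 CPM in HFs and 82.3 to 95.5 CPM in HFc, to 11.1 to 121 CPM in KFs and 384 to 406 CPM in KFc, and to 32.8 to 40 CPM in TFs and 168 to 194 CPM in TFc. The 4 haemoglobin genes had no count in culture and summed to at most 40 CPM after transplantation. The paper reads *Kap*, *Slc27a2* and *Pck1* as genes that transplanted heart and tail fibroblasts expressed in response to the kidney. Whether these transcripts came from cells of the recipient or from the fibroblasts was not tested, nor was their part in the results below. In bulk RNA, fewer cells of a type and less RNA per cell cannot be told apart.

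TEAD factors recognise the bases GGAATG, so the windows from 250 bases before to 50 bases after the RefSeq starts (assembly GRCm38.p6) were searched for GGAATG on both strands, where the other strand reads CATTCC. RefSeq windows were given for 8 of the 10 genes, all but *Ccn2* and *Tead1*, and each of the 8 held a match in at least 1 window. Over all genes with a window, 4481 of 27025 (16.6%) held a match. The 10 genes were picked as known targets of TEAD or as parts of its pathway, and matches are given as a description and not as sites of binding. The motifs TGANTCA (AP-1) and the CArG box (SRF) were in none of the 8 genes and in 8.97% and 1.81% of all genes. The sequences with the matches are printed because GGAATG is the element through which TEAD factors are known to reach their targets. Bases are 5′ to 3′ on the strand of the gene, the capitals mark GGAATG or CATTCC, and positions count from the RefSeq start, with -1 the base before it. For *Ccn1* (chr3:145649986-145650235, minus strand), *Ajuba* (chr14:54577662-54577911, minus strand) and *Axl* (chr7:25788734-25788983, minus strand) all 250 bases before the start lay between annotated genes and are shown whole. For *Ankrd1* (chr19:36120037-36120066 and chr19:36119950-36119979, minus strand), *Amotl2* (chr9:102717727-102717756, plus strand) and *Lats2* (chr14:57746102-57746131, minus strand) the matches fell within an exon of the gene's own GENCODE transcripts, in a UTR, and 30 bases around each are shown. The *Lats2* match also fell within an exon and UTR of the gene *Gm49361*, on the same strand.
Ccn1, match at -103: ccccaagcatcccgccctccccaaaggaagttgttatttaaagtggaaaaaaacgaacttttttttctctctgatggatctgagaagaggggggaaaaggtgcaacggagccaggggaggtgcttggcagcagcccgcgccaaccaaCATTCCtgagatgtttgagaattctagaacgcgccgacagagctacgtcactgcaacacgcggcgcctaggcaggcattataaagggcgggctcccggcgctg
Ajuba, matches at -186 and -164: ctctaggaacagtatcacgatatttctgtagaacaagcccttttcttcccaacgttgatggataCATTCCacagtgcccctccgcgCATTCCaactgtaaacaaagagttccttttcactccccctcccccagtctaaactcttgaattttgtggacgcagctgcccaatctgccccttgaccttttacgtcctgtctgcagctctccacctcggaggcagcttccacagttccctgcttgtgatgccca
Axl, match at -233: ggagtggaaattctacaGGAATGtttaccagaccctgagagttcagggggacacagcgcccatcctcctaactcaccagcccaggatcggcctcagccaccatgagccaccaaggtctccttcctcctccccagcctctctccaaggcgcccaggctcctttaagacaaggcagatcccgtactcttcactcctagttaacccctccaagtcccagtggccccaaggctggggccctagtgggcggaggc
Ankrd1, match at -210: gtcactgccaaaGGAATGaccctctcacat
Ankrd1, match at -123: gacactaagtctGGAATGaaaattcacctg
Amotl2, match at -65: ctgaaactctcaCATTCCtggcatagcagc
Lats2, match at 5: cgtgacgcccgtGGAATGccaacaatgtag
The matches of *Yap1* (-141) and *Wwtr1* (-136 and, from its other start, -170) also lay before the start. *Ankrd1* and *Ajuba* were the only ones of the 8 genes with a pair of matches in a window. In the other pathway lists described below, 7 of 19 genes of the Hippo list, 2 of 10 of the other YAP and TAZ targets and 5 of 10 of the SRF list held a match, and none of 8 immediate early genes did.

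The first question was how the levels of the 10 genes differed between cells recovered from the kidney capsule and cells kept in culture. A gene was called where the adjusted p of edgeR's quasi-likelihood test (Benjamini-Hochberg over all genes) was below 0.05 and the log2 fold change was above 1 or below -1. On transplantation 3 of the 10 genes fell past both thresholds in heart, 5 in kidney and 4 in tail, and none rose past them. The background was 9.33% of all genes called lower in HFs relative to HFc, 7.99% in KFs relative to KFc and 5.53% in TFs relative to TFc, and 18.3%, 14.7% and 11% called higher. By the adjusted p alone 9, 9 and 7 of the 10 were lower, against 28.4%, 22.7% and 20.2% of all genes. In 9 of the 10 genes in each organ, all 3 transplanted libraries lay below all 3 cultured ones, against 34%, 25% and 31.2% of all genes. The median log2 fold change of the 10 genes was -0.91 in heart, -1.05 in kidney and -0.86 in tail, beside 0.05, 0.09 and 0 over all genes tested. Without KFs replicate 3, the counts past both thresholds were 3, 6 and 4.

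**Figure D1:**
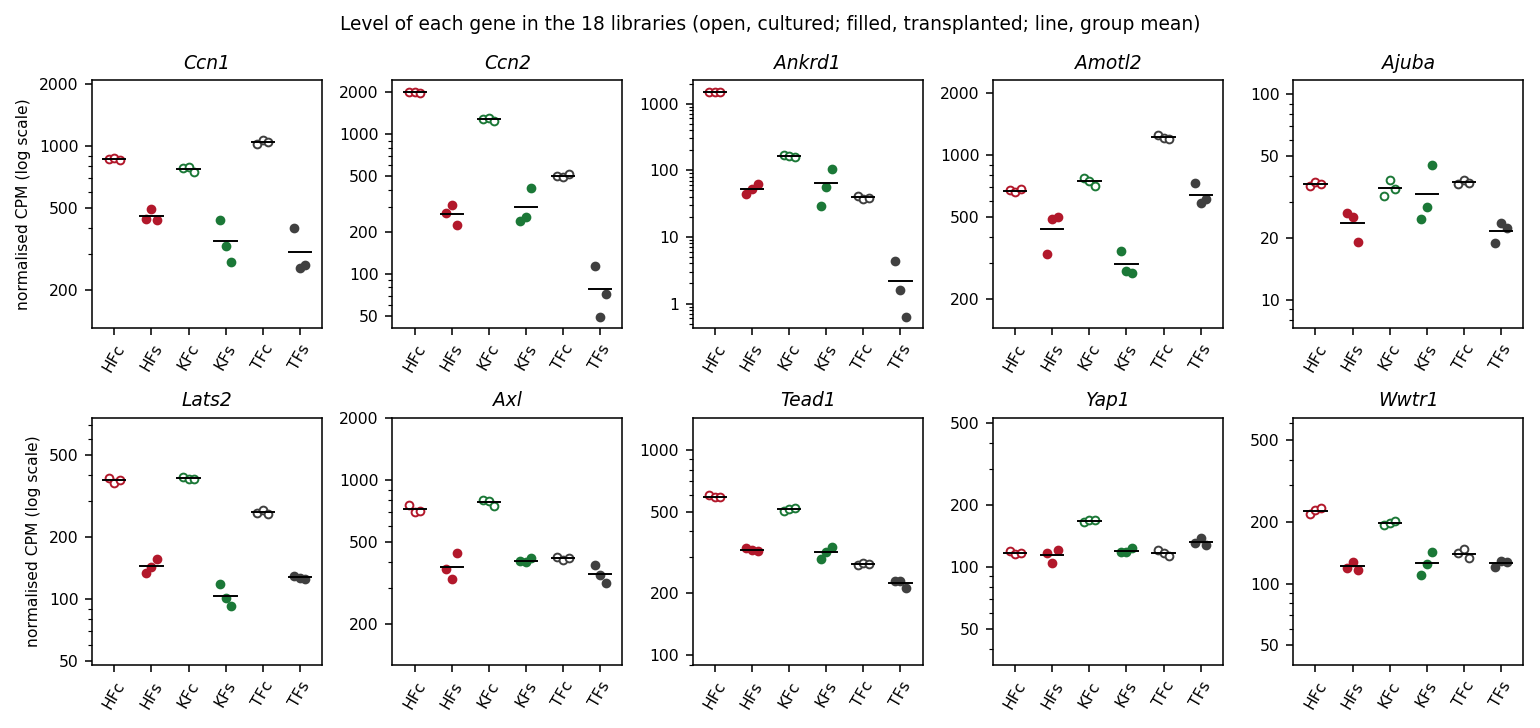
Normalised CPM on a log axis of each of the 10 genes in the 18 libraries, with open circles for cultured and filled circles for transplanted libraries and a line at the mean of each group of 3. *Ankrd1* spans from 0.636 CPM in a TFs library to 1520 CPM in an HFc library, while *Yap1* stays between 104 and 170 CPM in all libraries.

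The secreted matricellular proteins CCN1 (also known as CYR61) and CCN2 (also known as CTGF), and the muscle-associated ankyrin repeat protein ANKRD1, are encoded by the genes most often used as readouts of YAP and TAZ. *Ankrd1* (ENSMUSG00000024803, chr19:36111961-36120099, minus strand, GRCm38) had the largest span of the 10 genes. In culture it was at 1520, 1471 and 1494 CPM in HFc, 172, 166 and 160 CPM in KFc and 41.3, 37.4 and 38.8 CPM in TFc. After transplantation it was at 44.6, 52.3 and 62.8 CPM in HFs, 29.5, 55.2 and 106 CPM in KFs and 4.33, 1.59 and 0.636 CPM in TFs. The cultured groups were tight and far apart, the transplanted libraries lay below the cultured libraries of the same organ throughout, and TFs replicate 1 was high among TFs and KFs replicate 3 high among KFs. *Ankrd1* fell by 28.1 times in heart (log2 fold change -4.81, SE 0.462, adjusted p = 5.69e-07) and by 18.5 times in tail (log2 fold change -4.21, SE 0.495, adjusted p = 1.05e-05). In kidney it fell by 2.61 times (log2 fold change -1.39, SE 0.402, adjusted p = 0.00987), and without KFs replicate 3 by 4.03 times (log2 fold change -2.01, adjusted p = 7.22e-05). Leaving out 1 library at a time kept the call in each organ. The log2 fold change in tail then ran from -5.15 without TFs replicate 1 to -3.75 without TFs replicate 3, and the one in kidney reached -1.05 without KFs replicate 1.

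*Ccn2* (ENSMUSG00000019997, chr10:24595442-24598683, plus strand) was the next in span and fell in all 3 organs. Its level in culture was 2031, 2027 and 1971 CPM in HFc, 1290, 1320 and 1244 CPM in KFc and 500.5, 497 and 524 CPM in TFc. After transplantation the levels were 272, 314 and 223 CPM in HFs, 239.8, 256 and 412 CPM in KFs and 113, 49.4 and 72.1 CPM in TFs. HFc was highest and TFs lowest, no transplanted library reached the lowest cultured one of any organ, and KFs replicate 3 was again the highest of KFs. The fall was 7.46 times in heart (log2 fold change -2.90, SE 0.255, adjusted p = 2.42e-07), 4.24 times in kidney (log2 fold change -2.08, SE 0.247, adjusted p = 6.69e-06) and 6.48 times in tail (log2 fold change -2.70, SE 0.254, adjusted p = 1.29e-06). Without KFs replicate 3 the log2 fold change in kidney was -2.42.

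*Ccn1* (ENSMUSG00000028195, chr3:145646976-145649981, minus strand) had its highest level in cultured tail fibroblasts and not in heart. It was at 1030, 1074 and 1054 CPM in TFc, 863, 873 and 854 CPM in HFc and 789, 793 and 749 CPM in KFc. After transplantation it was at 402, 256 and 264 CPM in TFs, 441, 496 and 437 CPM in HFs and 441, 329 and 273 CPM in KFs. The order of the organs in culture was lost after transplantation, where the ranges of neighbouring groups overlapped and HFs had the highest mean. The fall passed both thresholds in tail (log2 fold change -1.78, SE 0.170, adjusted p = 1.53e-06) and kidney (log2 fold change -1.16, SE 0.167, adjusted p = 4.28e-05), and in heart only the threshold on the adjusted p (log2 fold change -0.92, SE 0.167, adjusted p = 0.000255).

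*Lats2* (ENSMUSG00000021959, chr14:57689662-57758388, minus strand), a target gene that itself encodes a kinase inhibiting YAP and TAZ, was called lower in each of the 3 organs, as were *Ccn2* and *Ankrd1*. In culture it was at 389.5, 368 and 378 CPM in HFc, 392, 385 and 384 CPM in KFc and 263, 271 and 258 CPM in TFc. After transplantation it was at 134, 142 and 157 CPM in HFs, 118, 101 and 92.9 CPM in KFs and 129.8, 127 and 126 CPM in TFs. The 9 transplanted libraries lay between 92.9 and 157 CPM, and all 9 cultured ones at or above 258 CPM. The annotated gene *Gm49361* overlaps exons of *Lats2* on the same strand, and its part in the counts of *Lats2* was not tested. The log2 fold changes of *Lats2* were -1.39 in heart, -1.90 in kidney and -1.05 in tail (SE 0.084, 0.086 and 0.084, with adjusted p of edgeR's test 6.89e-09, 6.25e-10 and 2.65e-07).

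*Amotl2* (ENSMUSG00000032531, chr9:102716672-102733418, plus strand) encodes an angiomotin family protein that binds YAP and holds it in the cytoplasm. It was highest in tail in both states, at 1252, 1219 and 1204 CPM in TFc and 731, 583 and 611 CPM in TFs. In kidney it was at 777, 752 and 711 CPM in KFc and 341, 275 and 267 CPM in KFs, and in heart at 674, 661 and 684 CPM in HFc and 332, 489 and 499 CPM in HFs. Cultured libraries lay above transplanted ones in each organ, with HFs replicate 1 low among HFs. Only the fall in kidney passed both thresholds (log2 fold change -1.34, SE 0.140, adjusted p = 1.98e-06). The log2 fold change was -0.93, adjusted p = 9.69e-05 in tail and -0.61, adjusted p = 0.00148 in heart by edgeR's test, and in tail it reached -1.04 without TFs replicate 1.

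*Ajuba* (ENSMUSG00000022178, chr14:54567472-54577558, minus strand), for a LIM protein that binds LATS kinases, was the lowest of the 10 genes per kilobase of exon in 5 of the 6 groups. It was at 26.5, 25.4 and 19.2 CPM in HFs, 24.8, 28.5 and 45.4 CPM in KFs and 18.8, 23.7 and 22.3 CPM in TFs, against 36.0 to 37.3 CPM in HFc, 31.9 to 38.1 CPM in KFc and 36.6 to 38.3 CPM in TFc. HFs and TFs lay below their cultured groups, and KFs replicate 3 lay above all cultured libraries. The log2 fold change was -0.63, adjusted p = 0.00706 in heart and -0.79, adjusted p = 0.00281 in tail by edgeR's test, within the fold limit. In kidney it was -0.084, adjusted p = 0.716, and without KFs replicate 3 -0.43, adjusted p = 0.0106.

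*Axl* (ENSMUSG00000002602, chr7:25757273-25788705, minus strand) encodes a receptor tyrosine kinase for GAS6. In culture it was at 758, 703 and 709.5 CPM in HFc, 799, 795 and 753 CPM in KFc and 421, 409 and 420 CPM in TFc. After transplantation it was at 369, 329 and 444 CPM in HFs, 403, 399 and 418 CPM in KFs and 388, 347 and 318 CPM in TFs. The transplanted groups lay together, and cultured tail fibroblasts lay near them. By edgeR's test *Axl* was lower within the fold limit in heart (log2 fold change -0.93, SE 0.10, adjusted p = 1.87e-06) and kidney (log2 fold change -0.94, SE 0.10, adjusted p = 2.34e-06), while the difference in tail missed the threshold (log2 fold change -0.25, SE 0.10, adjusted p = 0.0607). Without KFs replicate 3 the log2 fold change in kidney was -1.008, just past the fold limit, and without HFs replicate 3 the one in heart was -1.005.

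*Tead1*, *Yap1* and *Wwtr1*, the DNA-binding factor and the coactivators, stayed within the fold limit in every organ. *Tead1* (ENSMUSG00000055320, chr7:112679318-112906807, plus strand) was at 333, 324 and 321 CPM in HFs and 599.7, 585 and 588 CPM in HFc, at 293 to 338 CPM in KFs and 502 to 519 CPM in KFc, and at 213 to 229.7 CPM in TFs and 274 to 280.1 CPM in TFc. It was lower after transplantation in heart (-0.86, adjusted p = 8.19e-08), kidney (-0.70, adjusted p = 9.27e-07) and tail (-0.31, adjusted p = 0.002) by edgeR's test, and no transplanted library overlapped the cultured ones of its organ. *Wwtr1* (ENSMUSG00000027803, chr3:57455649-57575910, minus strand) was at 117 to 127 CPM in HFs, 111 to 142 CPM in KFs and 120.1 to 128 CPM in TFs, against 218 to 232 CPM in HFc, 192 to 202 CPM in KFc and 132 to 147 CPM in TFc. It was lower in heart (-0.90, adjusted p = 3.72e-07) and kidney (-0.65, adjusted p = 1.32e-05), and in tail the difference missed the threshold (-0.16, adjusted p = 0.139), by edgeR's test.

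*Yap1* (ENSMUSG00000053110, chr9:7931999-8004596, minus strand) had the narrowest range of the 10 genes, with its highest group mean 1.47 times its lowest. It was at 117, 104 and 121 CPM in HFs and 119.6, 116 and 117 CPM in HFc, ranges that overlapped. In kidney it was at 118, 118 and 124 CPM in KFs and 166, 169 and 169.8 CPM in KFc, and in tail at 131, 138 and 128 CPM in TFs and 121, 117 and 114 CPM in TFc. KFc stood above the other 5 groups, and in tail the transplanted libraries were the higher ones. By edgeR's test the log2 fold change was -0.042, adjusted p = 0.598 in heart (95% interval -0.18 to 0.1), -0.49, adjusted p = 1.98e-05 in kidney and 0.17, adjusted p = 0.045 in tail. The small difference in tail kept an adjusted p below 0.05 in 6 of 15 alternative settings, with p-values of up to 0.186.

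**Figure D2:**
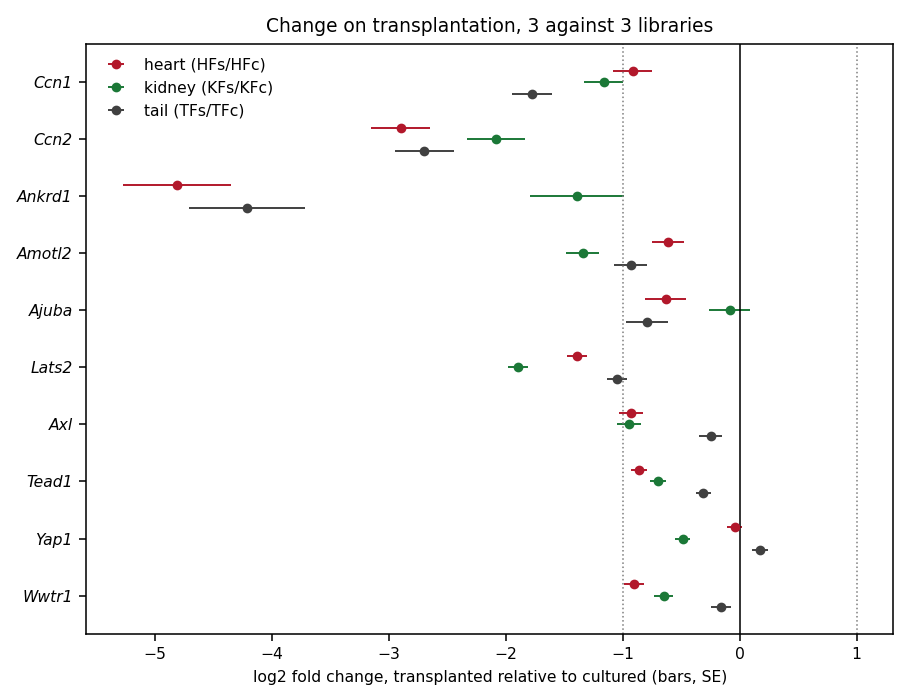
Log2 fold change of each of the 10 genes between transplanted and cultured fibroblasts (x axis), with bars for the SE, for heart (red), kidney (green) and tail (grey), and dotted lines at -1 and 1. *Ankrd1* lies at -4.81 in heart and -4.21 in tail and at -1.39 in kidney, and *Yap1* lies near 0 in heart and tail.

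The next question was whether the 3 organs responded to transplantation to the same extent, which was tested as the difference of the log2 fold changes (an interaction term of edgeR's test, adjusted p threshold 0.05). The tests share the libraries of each organ and are not independent. Responses of 5 genes differed between heart and tail, against 22.8% of all genes, and of 6 between kidney and tail, against 11.1%. Between heart and kidney 4 differed (7 without KFs replicate 1), against 26.2%. Without KFs replicate 3, 7 responses differed between kidney and tail, and over all genes 3619 of 16923 tested, in place of 1835. *Ankrd1* fell less in kidney than in heart by 3.43 on the log2 scale (adjusted p = 0.000622) and less than in tail by 2.82 (adjusted p = 0.00879), while heart and tail differed by -0.60, adjusted p = 0.534 (95% interval -1.94 to 0.74), a value that was 0.33 without TFs replicate 1. Without KFs replicate 3 the difference between heart and kidney was -2.78, adjusted p = 9.37e-05, and that between kidney and tail 2.24, adjusted p = 0.00324. The latter was 3.76 without TFs replicate 1. For *Ccn2* none of the 3 differences passed the threshold (-0.20, adjusted p = 0.716 for heart minus tail, 0.61, adjusted p = 0.273 for kidney minus tail and -0.81, adjusted p = 0.0884 for heart minus kidney, by edgeR's test). *Ccn1* fell less in heart than in tail (0.86, adjusted p = 0.0155), and between kidney and tail the difference was 0.62, adjusted p = 0.105 and, without KFs replicate 3, 0.74, adjusted p = 0.0166.

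Of the other members, *Lats2*, *Axl*, *Tead1* and *Wwtr1* had lower log2 fold changes in heart and in kidney than in tail. The difference for *Axl* was -0.68 between heart and tail and -0.70 between kidney and tail (adjusted p = 0.00314 and 0.00525), and for *Wwtr1* -0.74 and -0.49 (adjusted p = 0.000386 and 0.0139). For *Tead1* the differences were -0.55 and -0.39 (adjusted p = 0.000829 and 0.0159). With library size alone as the scaling, the differences between kidney and tail lost their call for *Tead1* (adjusted p = 0.1) and *Wwtr1* (0.0913), by edgeR's test, and 4 genes in place of 6 differed. *Lats2* differed by -0.85, adjusted p = 0.000359, between kidney and tail, and by -0.34, adjusted p = 0.0496, between heart and tail, a value that lost its call in most alternative settings, with p-values of up to 0.245. The log2 fold change of *Yap1* was lower in kidney than in tail (-0.66, adjusted p = 0.000359) and than in heart (a difference of 0.45, adjusted p = 0.00241 for heart minus kidney). *Amotl2* and *Lats2* fell less in heart than in kidney, by 0.73, adjusted p = 0.0121, and by 0.51, adjusted p = 0.00493. For *Ajuba* the differences were not past the threshold in any pair of organs.

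Between organs the genes were compared by the adjusted p alone, first in culture and then after transplantation, and comparisons that share a group are not independent. In culture 7 of the 10 genes differed between HFc and TFc, 6 higher and 1 lower in heart, against 41.9% of all genes. Between KFc and TFc 9 differed, 7 higher and 2 lower in kidney, against 36.4%, and between HFc and KFc 3 differed, against 29.2%. After transplantation 6 differed between HFs and TFs, 4 of them higher in heart, against 23.1% of all genes. Between KFs and TFs 6 differed, 4 of them higher in kidney, against 29.1%, and between HFs and KFs 2 differed (4 without KFs replicate 1), against 33.2%. The counts between heart and kidney depended on the setting, with 5 genes between HFs and KFs where library size alone was the scaling. Where just the compared groups were fitted, 0 genes differed between HFs and KFs and 9 between HFc and KFc. In these fits the counts over all genes moved the same way. They fell to 883 of 15350 genes tested between HFs and KFs, and rose between HFc and KFc to the count given in the last section. Several single calls were at the edge of the threshold: *Ccn1* between KFc and TFc (-0.44, adjusted p = 0.0494), *Tead1* between HFc and KFc (0.21, adjusted p = 0.0299) and *Yap1* between HFs and TFs (-0.21, adjusted p = 0.0268) had p-values of up to 0.134, 0.393 and 0.248 in alternative settings. *Ccn1* was higher in HFs than in TFs (0.58, adjusted p = 0.0199), with p-values of up to 0.102. Calls that 1 to 3 alternative settings ended were those of *Amotl2* between HFs and TFs (up to 0.0794), *Lats2* between KFs and TFs (up to 0.191), *Tead1* between KFs and TFs (up to 0.0523), and *Amotl2* and *Lats2* between HFs and KFs (up to 0.125 and 0.0811).

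*Ankrd1* and *Ccn2* were higher in heart and in kidney than in tail in both states. By group means of CPM, *Ankrd1* in HFc was 38.1 times that in TFc (log2 fold change 5.25, adjusted p = 3.25e-07) and 9.0 times that in KFc (log2 fold change 3.17, adjusted p = 4.09e-05), by edgeR's test. After transplantation the log2 fold change of *Ankrd1* was 4.65, adjusted p = 6.92e-06 for HFs relative to TFs and 4.91, adjusted p = 5.36e-06 for KFs relative to TFs, and without KFs replicate 3 the latter was 4.35, adjusted p = 4e-07. Leaving out 1 library at a time, the first ran from 4.19 without TFs replicate 3 to 5.58 without TFs replicate 1, and the second reached 5.84 without TFs replicate 1. The ranges of HFs and KFs overlapped (-0.25, adjusted p = 0.665; 95% interval -1.1 to 0.59), and without KFs replicate 3 the value was 0.34, adjusted p = 0.397. For *Ccn2* the log2 fold change was 1.99 for HFc relative to TFc and 1.34 for KFc relative to TFc, and 1.78 and 1.95 after transplantation (adjusted p of at most 0.000488).

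*Amotl2* was the gene lower in heart and kidney than in tail in both states, with log2 fold changes of -0.86 and -0.71 in culture and -0.55 and -1.12 after transplantation. *Axl* and *Wwtr1* were higher in HFc and in KFc than in TFc, by 0.80 and 0.91 for *Axl* and by 0.69 and 0.50 for *Wwtr1*, and after transplantation their differences from TFs lay between -0.05 and 0.21 and did not pass the threshold. *Tead1* kept a higher level in heart and kidney, with log2 fold changes from tail of 1.09 and 0.89 in culture and 0.54 and 0.50 after transplantation. *Lats2* was higher in KFc than in TFc (0.55) and lower in KFs than in TFs (-0.30, adjusted p = 0.0143). *Ajuba* passed the threshold between organs only for KFs relative to TFs (0.60, adjusted p = 0.0193), which was lost without KFs replicate 3 (0.30, adjusted p = 0.0821).

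**Figure D3:**
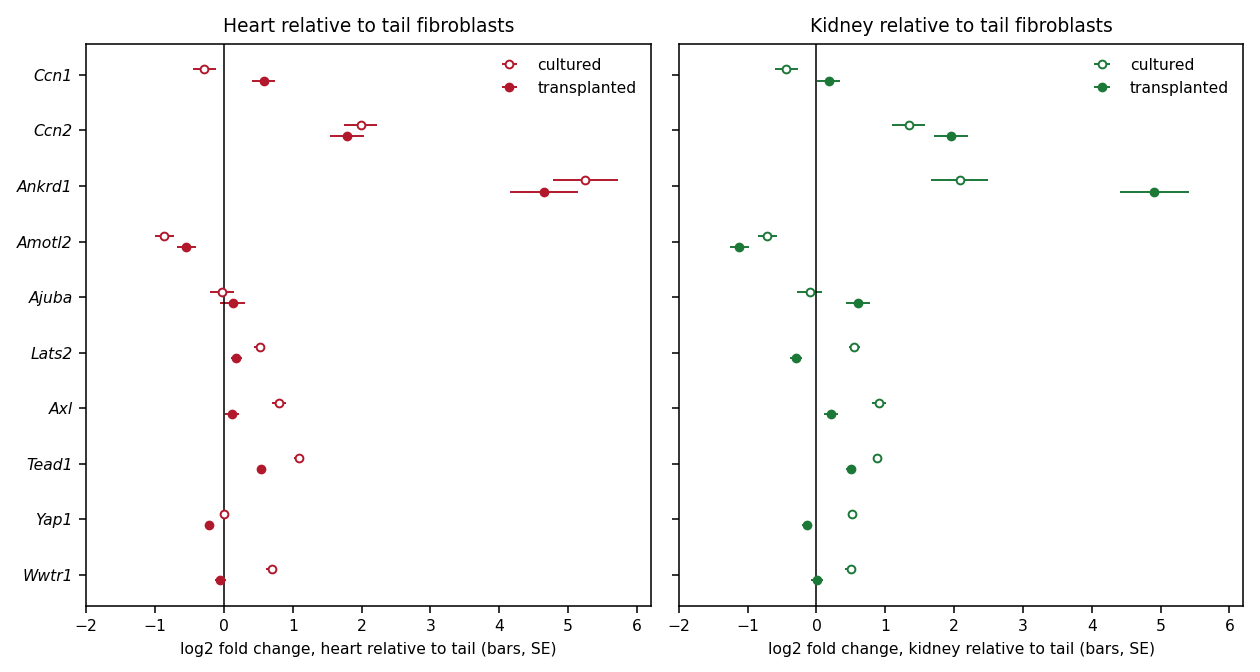
Log2 fold change (x axis, bars for the SE) of heart relative to tail fibroblasts (left) and kidney relative to tail fibroblasts (right), in culture (open) and after transplantation (filled). *Ankrd1* and *Ccn2* are higher than in tail in both states, *Amotl2* is lower in both, and *Wwtr1* lies at 0.69 and 0.50 in culture and near 0 after transplantation.

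Levels of different genes were compared per kilobase of the summed exon length. *Ccn1* was the highest of the 10 genes in TFc, HFs, KFs and TFs, at 521, 227, 172 and 152 CPM per kilobase, and *Ccn2* the highest in HFc and KFc, at 702 and 449 CPM per kilobase. *Ankrd1* took the second place in HFc (518 CPM per kilobase) and the last in TFs (0.758 CPM per kilobase). *Yap1* lay between 12.3 and 18.2 CPM per kilobase in all groups.

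Over the 18 libraries, which fall into 6 groups and share the organ and state effects described, the pattern of log2 CPM most like that of *Ankrd1* among the members was that of *Ccn2* (Pearson's r 0.934). *Ccn1* was most like *Lats2* (0.872), *Axl* most like *Tead1* (0.921) and *Wwtr1* most like *Axl* (0.909). *Amotl2* was most like *Ccn1* (0.741) and *Ajuba* most like *Ccn2* (0.736). Within a state some of these pairs were not alike. Over the 9 cultured and the 9 transplanted libraries taken apart, r was 0.949 and 0.952 for *Ccn2* and *Ankrd1* and 0.953 and 0.514 for *Axl* and *Tead1*, but -0.936 and 0.556 for *Ccn1* and *Lats2*, 0.899 and -0.212 for *Axl* and *Wwtr1*, 0.863 and -0.015 for *Ccn1* and *Amotl2*, and -0.233 and 0.547 for *Ccn2* and *Ajuba*. Over all 18, *Yap1* was the least like of the others for *Ccn1*, *Ccn2*, *Ankrd1*, *Ajuba* and *Lats2*, with r from -0.02 to 0.386, and its own highest r was 0.549, with *Axl* (0.597 and 0.032 within the states). Among all genes tested, *Ankrd50*, *Mical2* and *Inafm2* were the most like *Ankrd1* (r 0.969, 0.963 and 0.962). *Mical2*, which encodes an actin-oxidising enzyme, had group means of 223 and 712 CPM in HFs and HFc, 305 and 445 CPM in KFs and KFc, and 74.9 and 247 CPM in TFs and TFc. *Ddah1* and *Slc7a1* were the most like *Ccn2* (0.985 and 0.979), and *Qpct*, *Herpud1* and *Dlg1* the most like *Ccn1* (0.967, 0.963 and 0.962). With organs that differ in level and a state that lowers it, many genes can have a high r over these 18 libraries.

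The other genes of the pathway were followed as lists. For this and the following lists, the background in heart, kidney and tail was 18.3%, 14.7% and 11% of all genes called higher. It was 9.33%, 7.99% and 5.53% called lower, and the list counts were not tested against it. The list of Hippo kinases, scaffolds and TEAD partners held 23 genes, all tested, of which 2 rose and 6 fell past both thresholds in heart, 1 and 3 in kidney and 1 and 2 in tail. Its median log2 fold changes were -0.31, -0.16 and -0.14, beside 0.05, 0.09 and 0 over all genes. *Dchs1*, for a large cadherin upstream of the pathway, rose in all 3 organs (log2 fold changes 2.94, 3.90 and 1.73). Its levels in culture were low, at 0.0364 to 0.590 CPM in HFc, which starts below the floor of 3 counts, and 0.432 to 0.858 CPM in KFc. Its call in tail was lost without TFs replicate 3 or TFc replicate 3. *Vgll3*, for a cofactor that binds TEAD, fell in heart by 1.44, in kidney by 1.66 and in tail by 1.41 on the log2 scale. *Tead4* fell in heart (-1.89) and kidney (-1.09), from at most 5.93 ± 0.899 CPM (SD, n = 3) in HFc, and *Amot*, for the angiomotin, fell in tail (-1.38). *Wwc1*, for the scaffold KIBRA, fell in heart (-2.27), and in KFs its 3 libraries spread over 7.40, 5.32 and 125 CPM. *Lats1* had log2 fold changes between -0.15 and 0.02 and did not pass the adjusted p in any organ (named after its values were seen).

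Of 16 other reported targets of YAP and TAZ, 2 rose and 7 fell in heart, 2 rose and 9 fell in kidney, and 2 rose and 2 fell in tail. The medians were -0.36, -1.13 and -0.44. *Crim1*, for a transmembrane regulator of BMP signalling, fell in all 3 organs (log2 fold changes -1.53, -2.44 and -1.21), as *Ccn2* did. *F3*, for tissue factor, fell in heart (-2.98, adjusted p = 1.12e-05) by edgeR's test. The 2 genes that rose were *Igfbp3*, for an IGF binding protein (3.72, 2.78 and 2.99), and *Nt5e*, for the ectonucleotidase CD73 (2.85, 3.06 and 3.09), in all 3 organs. *Nt5e* was at 4.41, 6.25 and 99.9 CPM in KFs, so that the value in kidney rested on replicate 3, and without that library 1 gene of the list rose in kidney and 9 fell.

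SRF and its MRTF coactivators form another actin-dependent route to gene expression that shares targets with YAP and TAZ. Of 12 SRF and MRTF targets and factors, 7 fell in heart, 8 in kidney and 8 in tail and none rose, with medians of -1.30, -1.59 and -1.40. *Cnn1*, for the smooth muscle protein calponin, fell in all 3 organs (-2.31, -3.36 and -4.99), from 18.6 ± 2.31 CPM (SD, n = 3) in HFc, 450.5 ± 7.06 CPM in KFc and 99.1 ± 5.54 CPM in TFc. *Actg2* had log2 fold changes of -2.56, -2.89 and -3.12, *Tagln* of -2.23 in heart and -2.71 in tail, and *Acta2*, for smooth muscle actin, of -2.18 in kidney. The summed level of the list was 3000 to 4750 CPM in HFs and 8800 to 8900 CPM in HFc, 5700 to 7750 and 17200 to 17700 CPM in KFs and KFc, and 2930 to 3820 and 6410 to 6430 CPM in TFs and TFc. Unlike *Ankrd1* and *Ccn2*, the sum was highest in kidney and not in heart in culture.

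Of 10 immediate early genes, which are induced within minutes by serum, stress and tissue dissociation, 8 rose and none fell in each organ (5 rose in tail without TFs replicate 1), with medians of 1.87, 1.82 and 1.40. *Fosb* rose most (6.14, 5.70 and 5.25), and *Fos* by 4.26, 3.31 and 3.65. *Egr1* rose by 3.31 in heart, *Atf3* by 3.44 in kidney and *Zfp36* by 2.03 in tail, on the log2 scale. In KFs *Atf3* was at 20.6, 12.3 and 72.7 CPM, highest in replicate 3. The summed level was 1580 to 1780 CPM in HFs and 405 to 422 CPM in HFc, 1450 to 2320 and 531 to 538 CPM in KFs and KFc, and 1170 to 1650 and 480 to 499 CPM in TFs and TFc. The transplanted cells had been sorted from dissociated kidneys, and the part of that handling in the levels of the 10 genes was not tested.

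Of 8 genes of the TGF-beta response, a route that also raises *Ccn2*, 4 rose and 2 fell in heart, and 2 rose and 2 fell in kidney and in tail, with medians of 0.72, -0.19 and -0.51. The count of genes that fell was 1 in heart without HFs replicate 1, HFs replicate 2, HFc replicate 1 or KFs replicate 3, and 1 in kidney without KFs replicate 1 or 3. *Postn*, for the matrix protein periostin, rose by 2.95 in kidney and 6.12 in tail on the log2 scale, from 11.3 ± 0.301 to 788 ± 151 CPM (SD, n = 3) in tail. *Tgfbi* rose in all 3 organs (4.43, 1.40 and 1.65) and *Ltbp2* in heart (3.92). *Smad7*, for the feedback inhibitor of the pathway, fell by 1.42 in kidney and 1.85 in tail. By the adjusted p alone, 4 genes of the list were higher and 3 lower in heart, 2 and 3 in kidney and 2 and 4 in tail. The summed level was 2370 to 3680 CPM in HFs and 4270 to 4520 CPM in HFc, 2120 to 4310 and 3390 to 3600 CPM in KFs and KFc, and 2910 to 3320 and 4610 to 4710 CPM in TFs and TFc. In these sums the transplanted libraries lay below the cultured ones in heart and tail and overlapped them in kidney. In heart the lower sum went against the list's median log2 fold change of 0.72, as a sum follows its most abundant genes. These lists were chosen with earlier results of these libraries known, and their counts describe them only.

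**Figure D4:**
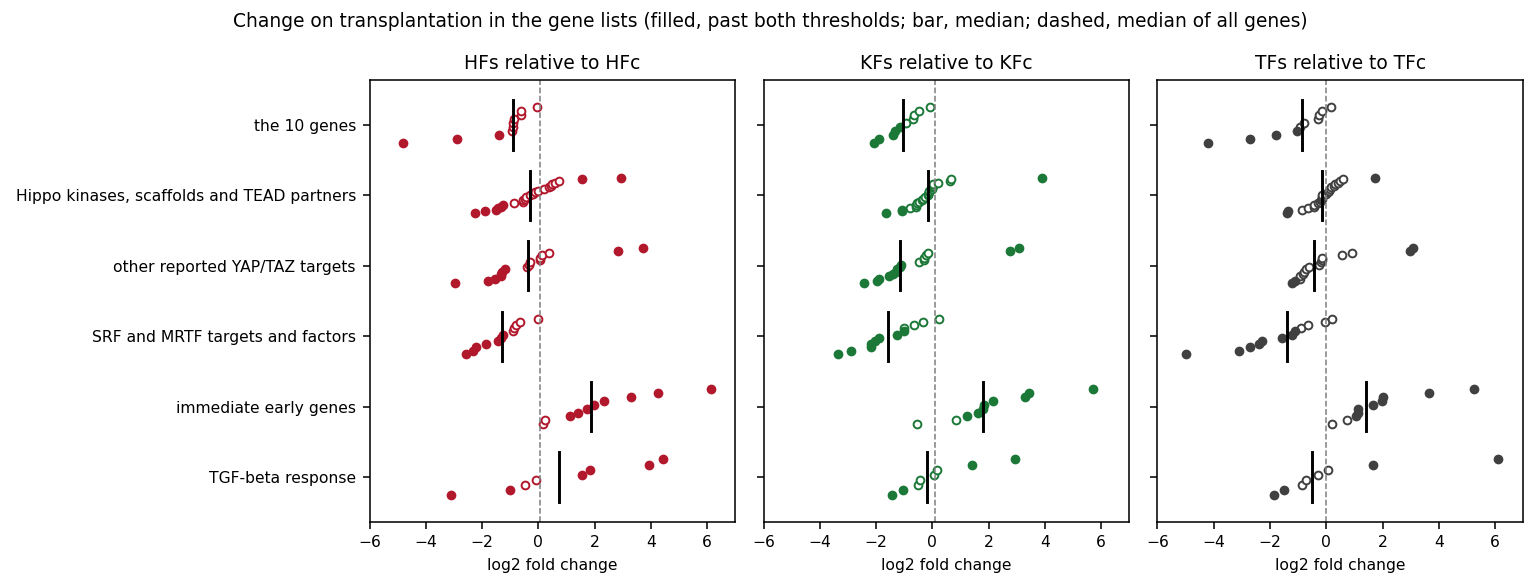
Log2 fold change on transplantation (x axis) of the 10 genes and of the genes of each list in heart (left), kidney (middle) and tail (right), with filled circles for genes past both thresholds, a bar at the median of each list and a dashed line at the median of all genes tested. The SRF list lies to the left of the dashed line with medians of -1.30, -1.59 and -1.40, and the immediate early genes lie to its right.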

How the data were processed

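Total RNA of 18 libraries, all made with 1 stranded kit per the labels, was sequenced as single-end reads. The authors used RSEM, which ran Bowtie2 with the strand taken into account, and deposited its expected counts, which are not normalized. For the tests here they were rounded to whole numbers. The paper's methods name GRCm38 and the submitters' processing notes mm9, and the table holds no coordinates, so positions here are those of GENCODE M21 (GRCm38), which held 37607 of the identifiers and lacked 1317 (0.277% of counts). Groups were taken from the sample titles.

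For the tests, edgeR 4.0.16 under R 4.3.3 (functions filterByExpr, estimateDisp, glmQLFit and glmQLFTest, with TMM scaling) was fitted to all 18 libraries with 1 mean per group, and the SE was the log2 fold change divided by the square root of F. Depth limits detection to above 3 counts (0.093 to 0.167 CPM), and floors cover counting error only. The fitting code was run on simulated counts with known changes in HFs. These had the same spread in all groups, so they cannot show how the tests behave under the unequal spread of these libraries. Correlations used log2 CPM with a prior count of 2. Alternatives were DESeq2 1.42.0, other scalings, filters, thresholds and fits, the replicate block and each library left out. Fits without KFs replicate 3 in comparisons not holding it were added after the data were seen.

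The 10 genes and the lists were chosen with earlier results of these data known. Named in the text are all 10 genes, from each list and organ at most the 3 called genes of largest change, the 3 genes most like each of *Ccn1*, *Ccn2* and *Ankrd1*, and the member most like each member. A few genes that this rule names are not reported here. Matches of motifs were sought in RefSeq windows. Figures were drawn with matplotlib 3.10.9.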

Additional observations from a re-analysis of the deposited data

Results flagged for a closer look

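The responses of the 10 genes to transplantation that differed between organs, by the interaction term of edgeR's quasi-likelihood test over all genes, are collected here as values of 1 log2 fold change minus another, with 3 libraries in each group. For heart minus tail they were 0.86 for *Ccn1* (adjusted p = 0.0155), -0.34 for *Lats2* (0.0496), -0.68 for *Axl* (0.00314), -0.55 for *Tead1* (0.000829) and -0.74 for *Wwtr1* (0.000386). For kidney minus tail they were 2.82 for *Ankrd1* (0.00879), -0.85 for *Lats2* (0.000359), -0.70 for *Axl* (0.00525), -0.39 for *Tead1* (0.0159), -0.66 for *Yap1* (0.000359) and -0.49 for *Wwtr1* (0.0139). For heart minus kidney they were -3.43 for *Ankrd1* (0.000622), 0.73 for *Amotl2* (0.0121), 0.51 for *Lats2* (0.00493) and 0.45 for *Yap1* (0.00241). The share of all genes that differed was 22.8%, 11.1% and 26.2%, and without KFs replicate 3 the number of genes that differed between kidney and tail was 3619 in place of 1835. With groups of 3, single libraries were not tested as outliers.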

How the results depend on the processing

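The direction of a called value of the 10 genes changed under none of the alternatives run, and of 2170 recomputed values 36 changed sign, each of a gene called in neither setting. With no limit on the fold change, 9 genes were called in heart, 9 in kidney and 8 in tail on transplantation, among 9353, 8091 and 6433 genes in all in place of 4585, 3754 and 2743. With a log2 limit of 1 between organs, 3 genes were called between HFc and TFc, 2 between KFc and TFc, 1 between HFc and KFc, 2 between HFs and TFs, 3 between KFs and TFs and 0 between HFs and KFs, and for the differences of responses 0 (heart and tail), 1 (kidney and tail) and 1 (heart and kidney). At an adjusted p of 0.01, 3 responses differed between heart and tail. In a fit of only the groups compared, the counts were 9 between HFc and KFc, 3 between KFs and TFs and 0 between HFs and KFs, and library size alone gave 5 between HFs and KFs. The causes of these changes were not tested, beyond the stricter or looser threshold itself. Where 1 library was left out, the counts ran from 3 to 4, 5 to 6 and 4 to 5 on transplantation in heart, kidney and tail. Between organs they ran from 7 to 7 for HFc and TFc, 8 to 9 for KFc and TFc, 2 to 4 for HFc and KFc, 4 to 7 for HFs and TFs, 5 to 6 for KFs and TFs and 2 to 4 for HFs and KFs, with 4 and, for the responses of heart and kidney, 7 without KFs replicate 1. For the responses the ranges were 4 to 5 (heart and tail), 6 to 8 (kidney and tail) and 4 to 7 (heart and kidney).

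Over all genes, the counts between organs moved by over 1.5 times with the log2 limit of 1 to 3237 from 6943 (HFc and TFc), 2703 from 6026 (KFc and TFc), 2473 from 4833 (HFc and KFc), 1722 from 3822 (HFs and TFs), 1971 from 4819 (KFs and TFs) and 2096 from 5504 (HFs and KFs), and the differing responses to 1876 from 3776, 980 from 1835 and 2176 from 4347. At an adjusted p of 0.01 they were 3849 (KFc and TFc), 3041 (HFc and KFc), 2236 (HFs and TFs), 2801 (KFs and TFs), 3317 (HFs and KFs), and 1904, 767 and 2386 for the responses. In a fit of only the groups compared they were 7508 of 14725 genes tested (HFc and KFc), 1137 of 15211 (KFs and TFs) and 883 of 15350 (HFs and KFs). Without TFs replicate 3 the count was 3183 (KFs and TFs). For the responses of kidney and tail it was 3619 without KFs replicate 3 and 1198 without TFc replicate 3.

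No pairing by replicate number was seen, as none of 27 same-numbered pairs had a correlation of deviations over 0.1 (-0.139 to 0.079). Differently numbered pairs reached 0.15. With groups of 3 libraries these values cannot exclude that same-numbered libraries share an origin. With the replicate block, 4 in place of 5 responses differed between heart and tail, since *Lats2* had a difference of -0.34 with an adjusted p of 0.0684 by edgeR's test, and the block changed no other call of the 10 genes.

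The counting floor of 3 counts bears little on these genes, whose lowest count was 15.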
